A study of Mus musculus with 2 samples.

Results

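The genes described here are 7 patatin-like phospholipase domain (PNPLA) genes, Pnpla1, Pnpla2, Pnpla3, Pnpla5, Pnpla6, Pnpla7 and Pnpla8, together with Abhd5, G0s2 and Lipe, whose products act with PNPLA2 in the breakdown of stored triglyceride. They were taken by name from the gene column of the array, and were 10 of the 30133 genes or unnamed transcripts that the array reads. In the counts over all genes below, the unnamed transcripts are included as genes. Skin was taken at postnatal day 0, and its total RNA, labelled with 1 dye (Cy3), was hybridized to Agilent mouse arrays of 60-base oligonucleotides, with a single array for each genotype, Pnpla1+/+ and Pnpla1-/-. Each array held RNA pooled from 6 animals, and both pools were on the C57BL/6N background. The Pnpla1-/- mice carried a knockout-first allele in every cell of the body, from which flippase had removed the LacZ and Neo cassettes, and the Pnpla1+/+ mice were their littermates. The labels name the tissue skin and the series description epidermis, and markers of muscle, fat, dermis and blood were bright on both arrays, so the tissue is called skin here. Since no gene had a replicate, no test was possible, and the values describe 2 pools of RNA.

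PNPLA enzymes share a patatin-type catalytic domain and cleave, or transfer, fatty acids from triglycerides, phospholipids and other esters. In fat, PNPLA2 (adipose triglyceride lipase) makes the first cut in triglyceride, ABHD5 (also known as CGI-58) activates it, G0S2 inhibits it, and the hormone-sensitive lipase encoded by Lipe makes the next cut. In the epidermis, triglyceride is also a source of the linoleic acid that is built into the acylceramides of the water barrier, and inherited loss of PNPLA1 or of ABHD5 causes ichthyosis in people.

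The 10 genes were read by 13 probes, and 8 genes had a single probe. Pnpla3 had 2 probes and Abhd5 had 3, which lie at different places of the gene and gave different values. The first 30 of the 60 bases of these probes, and of the Pnpla1 probe on which the check of the genotype rests, are given as deposited, 5′ to 3′, to show that they read separate stretches.
Pnpla1 probe: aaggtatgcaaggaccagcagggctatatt
Pnpla3 brighter probe: tatccagtggctacaatgggcgacatccca
Pnpla3 dimmer probe: gcaaactagtggaacagcagaaggattgaa
Abhd5 first probe: attgggcttcggaagaagtagtagacctaa
Abhd5 brightest probe: ctttcctttctcctacacagaattaaaata
Abhd5 last probe: tcgacctcacaaatcacgactcgatgactt
On mm9 the Pnpla1 probe lies at chr17:29026908-29026967, the Pnpla3 probes at chr15:84016440-84016499 and chr15:84019823-84019882, and the Abhd5 probes at chr9:122277200-122277259, chr9:122288857-122288916 and chr9:122289983-122290042, all on the plus strand. No annotation of this build was used here, so the exon or untranslated region under each probe is not given. The longest run of bases shared by any pair of the 13 probes was 9. The probes' GC content ran from 35.0% to 55.0%.

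All 13 probes were well above background on both arrays and none carried an outlier flag. Intensities are given as the scanner software wrote them, after background subtraction, with the error of its own error model, which covers the reading of 1 spot and no spread between mice. Each intensity was then divided by the 75th percentile of its array (2108 in the Pnpla1+/+ array and 1734 in the other), and the difference of a gene is its log2 value in Pnpla1-/- skin less that in Pnpla1+/+ skin. The log2 SD that the error model gave a member's difference lay between 0.20 and 0.28. Repeated spots of other probes were tighter, with a median SD of a difference of 0.19 below an intensity of 200, of 0.08 between 200 and 2000 and of 0.07 above 2000. Levels of different probes are not compared as levels of their genes, and the sum of a marker list and its brightest probe are given only to describe that list.

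Of the 10 genes, 1 was at least 2-fold lower in Pnpla1-/- skin (Pnpla1 itself) and none was at least 2-fold higher. Over the 22374 genes of the array with a difference, 3.04% were at least 2-fold lower and 6.7% at least 2-fold higher. The median difference of the 9 genes other than Pnpla1 was 0.32, beside 0.00 over all genes. When the arrays were centred on spike-in RNA, added from outside to each labelling reaction, it became −0.11, beside −0.43 over all genes. For all genes, bounds included, the quartiles were −0.26 and 0.32, and 90.3% of the values were smaller than 2-fold. The largest differences upward were those of Abhd5 (0.81) and Pnpla7 (0.77), and both stayed above 0 at the gene level under each of the 12 alternative ways of processing.

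**Figure D1:**
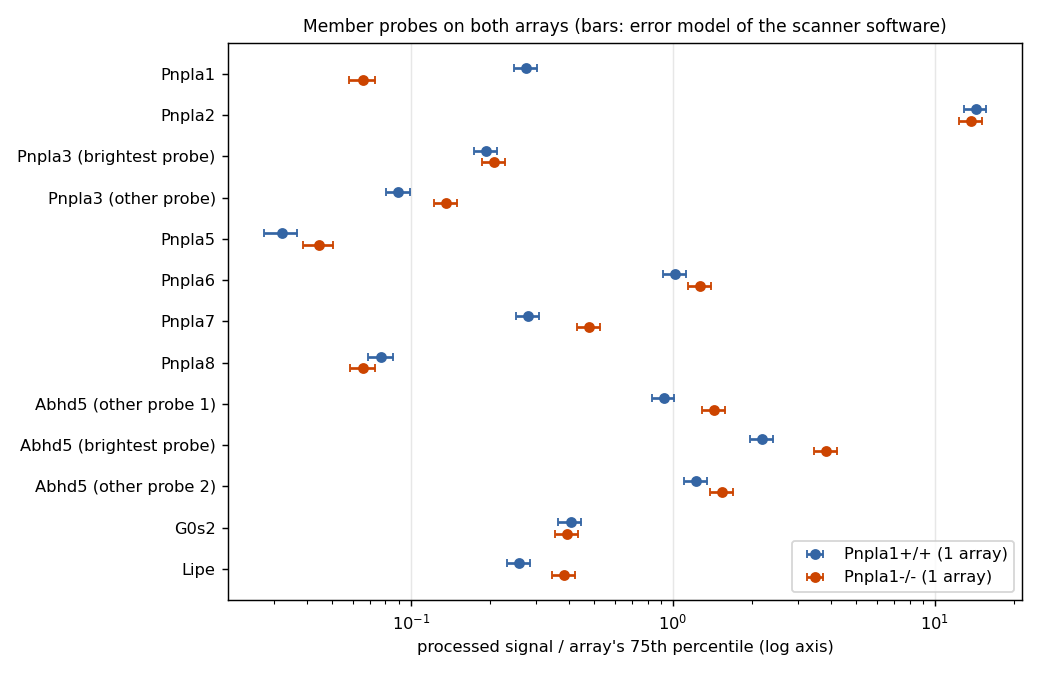
Processed signal of each of the 13 probes divided by the 75th percentile of its array (log axis), with 1 point per genotype and bars of 1 SD from the error model of the scanner software. The Pnpla1 points stand apart, at 0.27 for Pnpla1+/+ and 0.065 for Pnpla1-/-, while most other pairs lie close to each other.

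Pnpla1, the targeted gene, was lower in the skin that was labelled as lacking it. The intensity of its probe was 579 ± 58.2 (error model, 1 array) in Pnpla1+/+ and 114 ± 12.6 in Pnpla1-/- skin. This was a log2 difference of −2.07, or 4.19-fold lower, and 99.7% of the 20680 genes measured on both arrays had a higher value. The Pnpla1-/- intensity still exceeded every one of the 153 negative-control spots of that array, the brightest of which read 49.2. The sources used here do not say which exons the allele lacks, so it is not known whether the probe lies within the deleted sequence, and the remaining signal is not read as full-length messenger RNA. The array reads 12 other genes or unnamed transcripts within 250 kb of the Pnpla1 probe, 9 of which were measured on both arrays, none past 2-fold, with the lowest value, −0.42, for Srsf3, a splicing factor. Pxt1 had only a bound, of 0.87 or more, and with it the median was 0.10.

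Pnpla2 and its inhibitor G0s2 had scaled differences near 0, which became −0.49 and −0.48 when centred on spike-in RNA. Pnpla2, the triglyceride lipase, read 30106 ± 3011 in Pnpla1+/+ and 23799 ± 2380 in Pnpla1-/- skin, before scaling. After scaling the arrays were close, with a difference of −0.06 that was within the error of the reading. The Pnpla2 probe lies at chr7:148645928-148645987 on the plus strand. G0s2, the inhibitor of PNPLA2, read 857 ± 86.0 in Pnpla1+/+ and 684 ± 68.7 in Pnpla1-/- skin. Its difference of −0.04 was also within the error, and it turned above 0 with cyclic loess (0.05), a scaling that depends on brightness, and with normexp, a model-based background correction. The G0s2 probe lies at chr1:195098925-195098984 on the minus strand.

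Abhd5, the activator of PNPLA2, had the highest value of the 10 genes by its brightest probe, ahead of Pnpla7, an order that turned with the mean over probes and with cyclic loess. Its brightest probe read 4621 ± 462 in Pnpla1+/+ and 6666 ± 667 in Pnpla1-/- skin, a difference of 0.81, or 1.75-fold. The first probe read 1941 ± 194 and 2493 ± 249, a difference of 0.64. The last probe, which lies about a kilobase beyond the brightest, read 2589 ± 259 and 2668 ± 267, a difference of 0.33. All 3 probes were higher in Pnpla1-/- skin after scaling, none reached 2-fold, and the last turned to −0.11 when centred on spike-in RNA. The mean over the 3 probes was 0.59, and the gene ran from 0.38 (spike-in centring) to 0.85 (cyclic loess) over the alternatives.

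Lipe, the hormone-sensitive lipase, read 547 ± 55.1 in Pnpla1+/+ and 665 ± 66.8 in Pnpla1-/- skin at chr7:26165828-26165887 on the minus strand. Its difference was 0.56, higher in Pnpla1-/- skin, and it ran from 0.13 to 0.66 over the alternatives.

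A factor common to a whole array cancels when 2 genes of the same pair of arrays are set against each other. The difference of Abhd5 exceeded that of Pnpla2 by 0.87 ± 0.29 (error model) on the log2 scale, and by 0.65 to 0.95 over the 12 alternatives. Abhd5 exceeded G0s2 by 0.85 ± 0.29, with 0.64 to 0.85 over the alternatives. The low ends are those of the mean over the 3 Abhd5 probes, and the other values are those of its brightest probe. The last Abhd5 probe alone exceeded Pnpla2 by 0.38 ± 0.29 and G0s2 by 0.37 ± 0.29. The difference of Lipe exceeded that of Pnpla2 by 0.62 ± 0.29, while G0s2 and Pnpla2 lay 0.01 ± 0.29 apart.

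**Figure D2:**
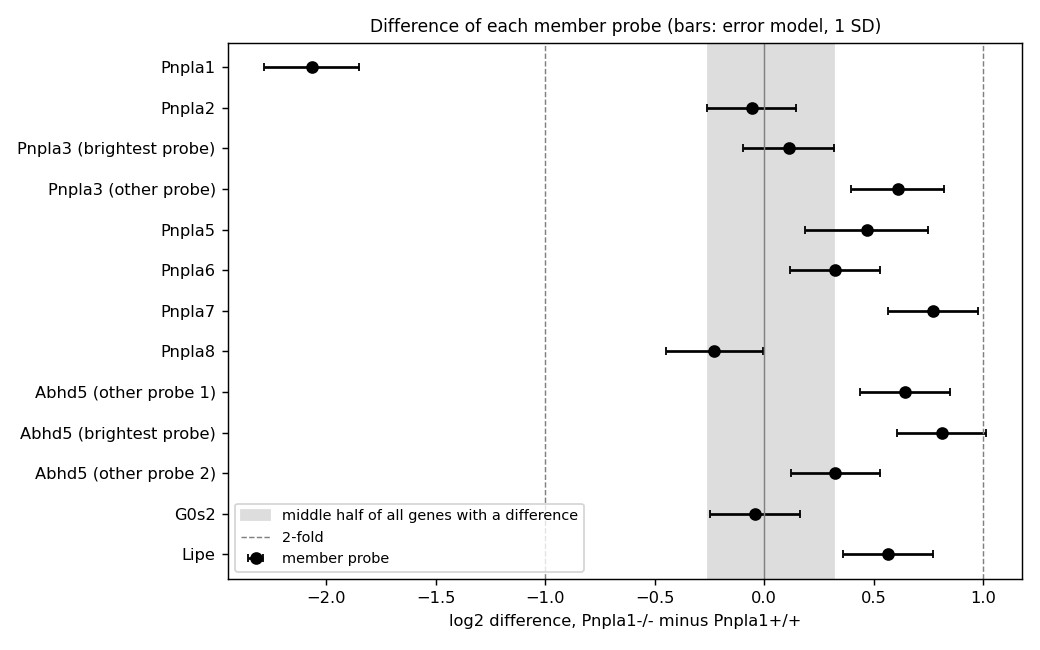
Log2 difference between Pnpla1-/- and Pnpla1+/+ for each of the 13 probes, with bars of 1 SD from the scanner software's error model, dashed lines at 2-fold and a grey band between the quartiles of all genes (−0.26 and 0.32). Pnpla1 lies beyond the lower 2-fold line at −2.07, and the probes of Abhd5 (0.33 to 0.81) and Pnpla3 (0.11 and 0.61) spread along the axis.

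Pnpla3 (adiponutrin), a close relative of Pnpla2 that sits on lipid droplets, was above 0 by both probes after scaling. The brighter probe turned below 0 only under settings that move every gene alike. Its brighter probe read 407 ± 41.2 in Pnpla1+/+ and 361.5 ± 36.6 in Pnpla1-/- skin, a difference of 0.11, which became −0.17 without scaling and −0.32 when centred on spike-in RNA. Its dimmer probe read 189 ± 19.8 and 237 ± 24.3, a difference of 0.61. This became 0.33 without scaling and 0.18 when centred on spike-in RNA. The scaled values of the probes lay farther apart than the technical SD of repeated spots at either intensity. That SD is of 1 difference and not of a gap between 2, and the error model gave each probe's difference a larger SD, 0.21. The mean of the 2 differences was 0.36.

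Pnpla5, a further member of the lipase branch, read close to the negative controls. Its probe gave 68.0 ± 9.82 in Pnpla1+/+ and 77.3 ± 10.1 in Pnpla1-/- skin. The first lay under the brightest negative-control spot of its array (73.9) and the second above that of its own (49.2). Its difference of 0.47 was within 2 SD of the error model (SD 0.28) and came down to 0.04 under spike-in centring. The Pnpla5 probe, chr15:83943051-83943110 on the minus strand, starts 76772 bases from a Pnpla3 probe, so the genes are neighbours on chromosome 15.

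Pnpla6 (neuropathy target esterase) and Pnpla7 encode related enzymes that act on lysophospholipids. Pnpla6 read 2147 ± 215 in Pnpla1+/+ and 2209 ± 221 in Pnpla1-/- skin at chr8:3544194-3544253 on the plus strand. Its difference of 0.32 was within 2 SD and turned to −0.11 under spike-in centring. Pnpla7 read 591 ± 59.5 in Pnpla1+/+ and 830.5 ± 83.2 in Pnpla1-/- skin, a difference of 0.77, or 1.71-fold. The Pnpla7 probe covers 232 bases of the genome, chr2:24908961-24909192 on the plus strand, for its 60 bases, so the bases it reads are not contiguous there. Pnpla7 stayed between 0.34 and 0.87 over the alternatives, and exceeded Pnpla6 by 0.45 ± 0.29, with 0.41 to 0.46 over the alternatives.

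Pnpla8, which encodes a calcium-independent phospholipase A2, was the only member besides Pnpla1, Pnpla2 and G0s2 with a value below 0. It read 163 ± 17.3 in Pnpla1+/+ and 114 ± 12.7 in Pnpla1-/- skin at chr12:45414232-45414291 on the plus strand. Its difference was −0.23, about 1 SD of the error model, and ran from −0.66 to −0.09.

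The sign was the same under all 12 alternatives for 7 genes, and it turned under at least 1 for Pnpla3, Pnpla6 and G0s2. For Pnpla3 and Pnpla6 it turned only under settings that move every gene alike. No member other than Pnpla1 reached 2-fold under any of them. At 1.5-fold, 2 members (Abhd5 and Pnpla7) were higher and 1 (Pnpla1) lower, beside 13.8% and 9.35% of all genes with a difference or a bound. The count of 2 became 0 without scaling (Abhd5 0.53, Pnpla7 0.49) and when centred on spike-in RNA (0.38 and 0.34), and 3 with cyclic loess, which added Lipe. At 3-fold only Pnpla1 was past the threshold, though not with normexp (−1.51), beside 3.06% of genes higher and 1.02% lower.

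**Figure D3:**
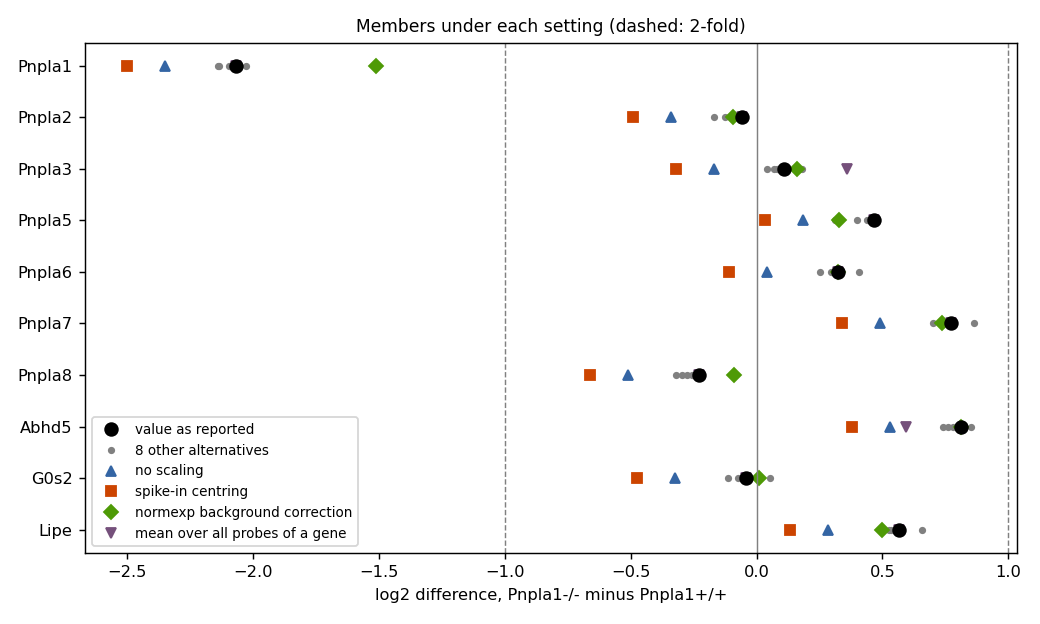
Log2 difference of each member gene as reported (black) and under the 12 alternatives, with dashed lines at 2-fold. Spike-in centring (squares) and no scaling (upward triangles) move all genes to the left together, and Pnpla1 stays beyond 2-fold everywhere, from −2.50 to −1.51, with normexp background correction nearest to 0.

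Genes that work beside these lipases were taken as 8 lists, and counts are beside the same background of 6.7% higher and 3.04% lower genes. A gene that passed the background test on a single array has a bound in place of a difference, set against its dim signal or, where higher, the dimmest passing signal of that array. Of 14 proteins that coat lipid droplets or control them, 1 was past 2-fold, with a list median of 0.17 that was below 0 without scaling or when centred on spike-in RNA. Cidea, a droplet fusion protein, rose from 3551 to 8941, a difference of 1.61. Fitm1 had the lowest value, −0.26. Plin1, which holds ABHD5 at the droplet in resting fat cells, had −0.08, and Plin5, which binds PNPLA2 and ABHD5, had 0.48.

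Of 12 other glyceride hydrolases, the endothelial lipase Lipg alone was past 2-fold. It was well above background in Pnpla1-/- skin only, where it read 59.2, and was at least 3.01-fold higher, a bound of 1.59 on the log2 scale that came down to 0.84 with normexp. The median was 0.03, below 0 under 4 of the alternatives, and the lowest value was −0.54 for the phospholipase Ddhd1. Mgll, which cleaves the monoglyceride left by PNPLA2 and LIPE, had 0.03. The 5 genes of the acid lipase cluster were all above 0 after scaling, with a median of 0.74 that came down to 0.30 when centred on spike-in RNA. This is the value of Lipf, whose intensity of 36.6 in Pnpla1+/+ skin lay under the 99th percentile of the negative controls (38.6). Lipn, a lipase of differentiating keratinocytes, rose from 297 to 810 (difference 1.73) and was the only one past 2-fold. The lowest of this list was Lipm, at 0.33, which turned to −0.11 with the same centring.

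Among 15 genes of triglyceride synthesis, 1 was past 2-fold upward and 2 downward, and the median of 0.23 was below 0 without scaling or when centred on spike-in RNA. Mogat2, a monoglyceride acyltransferase, rose from 94.7 to 196, a difference of 1.33 that came down to 0.90 when centred on spike-in RNA and was also under 2-fold with normexp. Agpat5 fell from 18792 to 2947, a difference of −2.39, and Agpat4 from 21541 to 7922, a difference of −1.16, and both are named for the acylation of lysophosphatidic acid. Dgat2 and Dgat1, which make the final step to triglyceride, had 0.12 and 0.44. In lipolytic signalling 14 of 15 genes had a difference, with a median of 0.04 that was below 0 under 4 of the alternatives. Hcar2, a receptor that restrains lipolysis in fat, rose from 1737 to 5561, a difference of 1.96. Adora1, likewise coupled to inhibition, was at least 2.36-fold higher, a bound of 1.24. That bound was under 1 with 4 of the alternatives (lowest 0.71). Hcar1, a relative of Hcar2, went the other way, from 43.0 to 20.0, and was at least 1.63-fold lower, a bound of −0.71. Adrb1, a beta-adrenergic receptor, fell from 392 to 100.5, a difference of −1.68. Adrb3, the receptor typical of rodent fat cells, had 0.99, just under 2-fold.

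None of 12 genes of fatty acid oxidation was past 2-fold. Their values ran from −0.50 for Cpt1a, which brings fatty acids into mitochondria, to 0.58 for Ppara, a receptor that drives this programme, and the median of 0.19 was below 0 without scaling or when centred on spike-in RNA. Of 12 genes of the acylceramide pathway, 5 were past 2-fold upward and none downward, with a median of 0.94 that was above 0 under all alternatives. These were Tgm1 (1.86), Ugcg (1.26), Cers3 (1.22), Sdr9c7 (1.22) and Cyp4f39 (1.18), and the lowest was Aloxe3 at −0.09. Tgm1, a transglutaminase gene of the cornified envelope rather than of ceramide synthesis, alone stayed past 2-fold under all alternatives. The other 4 were under 2-fold without scaling or when centred on spike-in RNA. The closest relatives of members outside the 10 genes had small values, 0.17 for the phospholipase Pla2g6 and 0.10 for Abhd4, both below 0 without scaling or when centred on spike-in RNA.

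**Figure D4:**
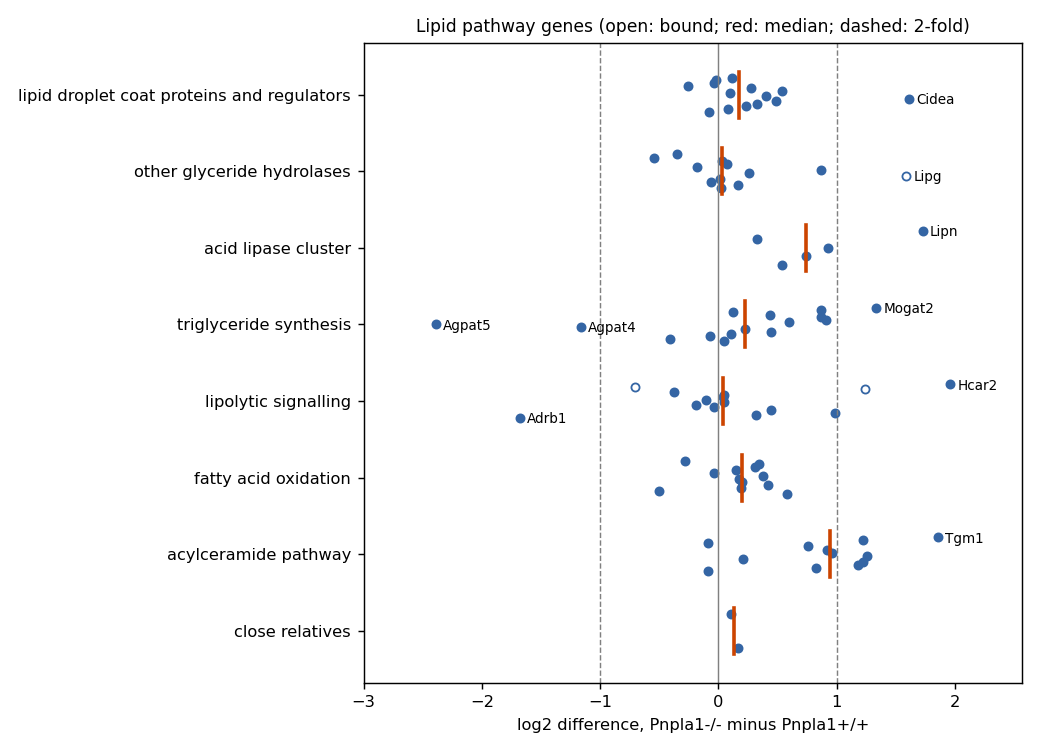
Log2 difference between Pnpla1-/- and Pnpla1+/+ for each gene of the 8 lipid lists, with list medians as red bars, open circles for bounds and dashed lines at 2-fold. Most genes lie between the 2-fold lines, and the acylceramide (0.94) and acid lipase (0.74) medians lie farthest to the right.

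In pooled skin, fewer cells of a type and less RNA per cell cannot be told apart, and several of the members are known for their expression in fat, so markers of the cells of skin were read beside them. Of 10 adipocyte markers, 9 had a difference, all above 0 with a median of 0.37 (below 0 under spike-in centring), and Thrsp alone was past 2-fold, at 1.39. Lep was below background on both arrays, Adipoq had the lowest value, 0.06, and the one with the brightest probe, Fabp4, had 0.10. The summed scaled signal of the list was 116 in Pnpla1+/+ and 147 in Pnpla1-/- skin. Of 5 brown adipocyte markers, Ucp1, the uncoupling protein of brown fat, rose from 99.2 to 2246, a difference of 4.78, Ppargc1a had 1.22 and Dio2 had the lowest value, −0.43. Their summed signal was 6.94 and 10.8, with the brightest probe that of Cox8b (0.46). The part of either kind of fat cell in the differences of Pnpla2, Abhd5, G0s2 and Lipe was not tested.

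Pnpla1 and Abhd5 are also expressed in keratinocytes. The 8 markers listed for granular keratinocytes summed to 438 in both pools, with a median of 0.11 that turned below 0 under 4 of the alternatives. Much of this sum came from Krt10 (0.20), with the brightest probe, and from Krt1 (0.10), a marker of the spinous layer. They read 277989 and 261233 in Pnpla1+/+ skin, so the equal sums do not show that granular cells were unchanged. Lor, a granular marker, read 243070 in Pnpla1+/+ and 162800 in Pnpla1-/- skin, a difference of −0.30. Flg2 fell by 6.41 and Kprp by 1.06 on the log2 scale, and Casp14 had the highest value, 0.74. Of 6 basal markers Krt14 alone was past 2-fold (1.35), the lowest was Col17a1 (−0.29), and their sum was 160 in Pnpla1+/+ and 218 in Pnpla1-/- skin, with the brightest probe that of Krt5 (0.22). The part of these cells in the difference of Pnpla1 or Abhd5 was not tested.

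Of 6 leukocyte markers 3 were past 2-fold, Lyz2 at 2.35, Ptprc at 1.51 and Adgre1 at 1.24. Their median was 1.04 and their sums were 15.2 in Pnpla1+/+ and 22.5 in Pnpla1-/- skin, while the lowest was Itgam at −0.03 and Csf1r, with the brightest probe, had 0.67. Of 5 red cell markers 4 had a difference, Alas2 (1.32) and Slc4a1 (1.11) were past 2-fold, and the sums were 39.4 and 70.4, with the brightest probe that of Hba-a1 (0.83). When centred on spike-in RNA, Thrsp, Ppargc1a, Krt14, Adgre1, Alas2 and Slc4a1 were under 2-fold. No marker of sebocytes, skeletal muscle, fibroblasts or endothelium was past 2-fold, and their medians were 0.04, 0.07, −0.07 and 0.35. Sebocyte values ran from −0.21 (Awat2) to 0.55 (Elovl3) and muscle values from −0.22 (Mylpf) to 0.57 (Myh3). Fibroblast values ran from −0.27 (Lum) to 0.32 (Pdgfra) and endothelial values from 0.17 (Pecam1) to 0.61 (Emcn). That of fibroblasts kept its sign under all alternatives, and the others were below 0 under at least 1. Muscle summed to 219 in Pnpla1+/+ and 251 in Pnpla1-/- skin, fibroblasts to 341 and 323, endothelium to 4.65 and 5.96 and sebocytes to 0.90 and 1.03. The pools also differed in genes of the sex chromosomes, with Xist at 1.12 and Ddx3y and Eif2s3y at −2.19 each. All 10 members lie on autosomes, and the part of blood cells or of the pups' sex in their differences was not tested.

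**Figure D5:**
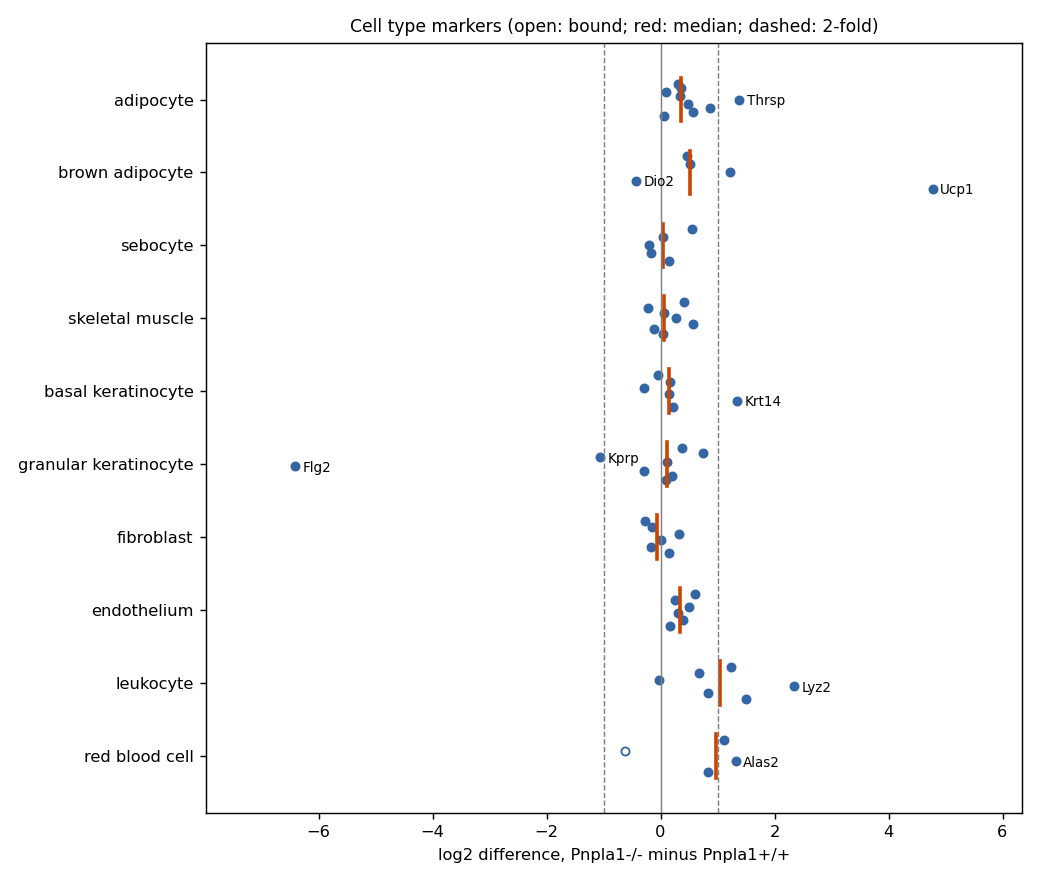
Log2 difference between Pnpla1-/- and Pnpla1+/+ for each gene of 10 cell type marker lists, with list medians as red bars, open circles for bounds and dashed lines at 2-fold. Ucp1 (4.78) and Flg2 (−6.41) stand far from the other markers of their lists, and leukocyte (1.04) and red cell (0.97) medians lie farthest to the right.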

How the data were processed

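Total RNA from skin of 6 animals per genotype was pooled by the authors, labelled with Cy3 and hybridized to Agilent 4x44K v2 mouse arrays, 1 per genotype. Per the labels, images were read with Feature Extraction 11.5.1.1, and the deposited files hold each spot's background-subtracted intensity with its error and flags. A further table of the authors holds the ratio of each intensity to a constant (2109 in Pnpla1+/+, 1734 in Pnpla1-/- skin).

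Here log2 of the processed intensity over the array's 75th percentile was computed with Python 3.11.15, numpy 2.4.6 and pandas 2.3.3 over 43020 spots (39429 probes), and 71.7% of spots in Pnpla1+/+ and 73.3% in Pnpla1-/- were well above background, with 0 saturated. Spots with an outlier flag (138 and 82) were left out, repeated spots were averaged, and a gene was represented by its brightest probe. Of 30133 genes, 20680 were measured on both arrays, 1710 on 1, and 7743 on neither. Probe names were updated through a RefSeq table of assembly GRCm38.p6, and coordinates are those of the scanner files (mm9). Genes were counted at 2-fold.

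The members and the 18 lists of genes were chosen with earlier results of these data known. All probes of members are given, and of a list every gene past 2-fold, or otherwise its highest and lowest; a few others were named for their role after their values were seen. Alternatives were other scalings (the median, none, the 75th percentile of probes that passed the background test, 8 E1A spike-in probes), quantile normalization, cyclic loess and normexp (offset 50), run with limma 3.58.1 in R 4.3.3, the authors' deposited ratios, the mean over a gene's probes, other filters on dim or flagged spots, and thresholds of 1.5-fold and 3-fold. The computation was tested on simulated data. The number of arrays limits the precision.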

Additional observations from a re-analysis of the deposited data

How the results depend on the processing

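Pnpla1 was past 2-fold under all 12 alternatives of scaling, normalization, background and filters. Its difference was −2.35 with no scaling, −2.50 under spike-in centring and −1.51 with normexp background correction, and within the technical SD of −2.07 under the other 9. At a threshold of 1.5-fold, 2 members (Abhd5 and Pnpla7) counted as higher, but 0 without scaling or under spike-in centring. Of 348 further values of members and lists, 260 moved by less than 0.08, the median technical SD over all repeated probes. This 1 SD was used at every intensity. The other 88 moved by more, 58 of them under spike-in centring or no scaling. By construction these settings move every gene, and the all-gene median by −0.44 and −0.28, while leaving dim probes unfiltered moved it by 0.10. The spike-in probes themselves were higher by 0.43 (0.30 to 0.49) on the Pnpla1-/- array after scaling, and how the true RNA content of the pools compared was not tested. All-gene counts were 1499 higher and 681 lower (68.8% higher), against 827 and 2182 (27.5%) under spike-in centring, 998 and 1424 (41.2%) without scaling, 960 and 321 (74.9%) with normexp, 3041 higher (73.3%) with no filter on dim probes and 1270 and 890 (58.8%) with quantile normalization. Of 14 pathway genes past 2-fold, all kept their sign and 7 stayed past 2-fold under every alternative that gave a value, as did 5 of 11 markers. No paired analysis was possible because each genotype had 1 array, and none could be left out in turn. Below an intensity of 200, as for Pnpla5 and Pnpla8, repeated spots of other probes varied by 0.19.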
